A study of Mus musculus with 16 samples.

Results

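RNA levels in cells of the mouse coronal suture were compared between thyroxine and control medium after 3 days, with the genotypes pooled. The arrays were chosen by their titles, which name the day and the medium, and 8 of the 16 arrays of the series belonged to the 3-day comparison. The series asks how thyroxine, the prohormone that the thyroid gland secretes, acts on cells of the suture that closes too early when 1 copy of Twist1 is lost.

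The 3-day arrays formed 4 groups of 2 arrays, 1 from female and 1 from male cells. All cells came from C57BL6 mice, drawn from 2 litters. The groups were Twist1+/- cells in DMEM with thyroxine at 10 to the power of -6 mol/L, Twist1+/- cells in control DMEM, wild-type cells in DMEM with thyroxine at the same concentration, and wild-type cells in control DMEM. Cells of each genotype and sex were expanded in DMEM with fetal bovine serum and set up in plates of 6 wells, 3 in each medium, with 65000 cells seeded per well, which gave 4 pairs of a thyroxine and a control array. There was 1 such pair, called a culture here, per genotype and sex, so the spread between pairs mixes genotype, sex and culture and is not a spread between animals. The age of the animals, the mutant allele and whether the wells were pooled are not stated in the labels used here.

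Thyroxine is converted by deiodinases into triiodothyronine, the form that binds the nuclear thyroid hormone receptors encoded by Thra and Thrb. The receptors sit on DNA with or without hormone, and hormone exchanges corepressors for coactivators, so that target genes such as Klf9 and Hr are transcribed more. In the skeleton thyroid hormone is known to speed the maturation of cartilage and bone, and an excess of it in early life is associated with premature closure of skull sutures.

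Levels are log2 values from RMA, a method that corrects the background, brings all arrays to 1 distribution and summarises the probes of each probe set. A difference of 1 is therefore a doubling, and a shift of all genes on an array could not be seen. Of 22180 named genes, each represented by its brightest probe set, 13453 lay above a mean of 3.905 and were tested. In each list of 4 values the order is Twist1+/- female, Twist1+/- male, wild-type female and wild-type male. The number of arrays limits the precision, and in these bulk samples fewer cells of a type and less RNA per cell cannot be told apart.

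The cells carried the markers of mesenchyme. The 12 suture mesenchyme and fibroblast markers averaged 9.17 to 10.3 on the thyroxine arrays and 9.26 to 10.3 on the control arrays. Markers of macrophages and osteoclasts were also high, with 21 of 26 listed genes above the filter and array means of 7.36 to 8.83 with thyroxine and 7.49 to 8.87 in control medium. Among these lists, 2 of the 12 mesenchyme markers, Lum and Dcn, and 0 of the 21 macrophage and osteoclast markers were lower with thyroxine at an unadjusted p under 0.05, and none was higher. Over all genes tested 1.41% were lower and 1.32% higher at that level. Endothelial, lymphocyte and keratinocyte lists lay mostly below the filter, with 4 of 10, 1 of 7 and 2 of 8 genes on the array tested. More genes were tested of the skeletal muscle (8 of 10), adipocyte (5 of 8), chondrocyte (5 of 10) and neural and glial (5 of 8) lists. In the lists of other cell types, Acta1, an actin of skeletal muscle, and Tubb3, a neuronal tubulin, were lower at an unadjusted p under 0.05, by a difference of -0.23 ± 0.08 and -0.24 ± 0.09 (SE), and none was higher. In both media the male wild-type arrays stood apart, with scores of 36.5 and 35 on the first principal component, which held 54.8% of the variance, against -16.8 to -8.43 on the other arrays.

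After 3 days the effect of thyroxine was small and no gene passed the test. Limma with the culture pair as a block called 0 of 13453 genes at an adjusted p of 0.05, which is 0%, and the smallest adjusted p was 0.999. At an unadjusted p under 0.05 it gave 367 genes, or 2.73%, with 177 higher (1.32%) and 190 lower (1.41%) in thyroxine. The effects of single genes ran from -0.64 to 0.70 on the log2 scale, with a median of -0.005 and a median standard error of 0.107. An effect of 0.3 or more in size was seen in 279 genes, or 2.07%. Genes higher with thyroxine in 4 of 4 pairs numbered 583 (4.33%) and genes lower in 4 of 4 pairs 632 (4.7%). All values below are therefore levels and differences of genes that did not pass the test, and p-values quoted for them are limma's before adjustment.

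The genes that were higher with thyroxine in every pair included the known hormone target Klf9 and the secreted proteins Htra1, Sfrp4, Itgbl1, Epdr1 and Pcolce2. The 12 characterised genes with the smallest p among those higher in 4 of 4 pairs were Htra1, Klf9, Stmn2, Fam180a, Itgbl1, Gsdmcl2, Pgm5, Sfrp4, Csprs, Npr3, Epdr1 and Pcolce2. Their effects ran from 0.30 to 0.70, or 1.23-fold to 1.62-fold, with p from 0.000103 to 0.00366. Since they were picked for these values, the sizes describe them and support nothing further. The thyroxine and control arrays did not overlap at all for 2 of the 12, against 65 genes (0.483%) over all genes tested.

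Klf9, a zinc-finger transcription factor transcribed directly in response to thyroid hormone in many tissues, had levels of 8.35, 8.17, 8.26 and 7.81 with thyroxine and 7.77, 7.87, 7.92 and 7.40 in control medium. Each thyroxine array was above the control array of its own culture, and only the wild-type male thyroxine array lay within the range of the control arrays. The mean was 8.15 ± 0.24 with thyroxine and 7.74 ± 0.24 in control medium (SD, n = 4 each), a difference of 0.41 ± 0.07 (SE; limma 95% interval 0.25 to 0.57).

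Htra1, a secreted serine protease that cleaves matrix proteins and insulin-like growth factor binding proteins, had the smallest p of all genes with a characterised name and 1 sign in every pair. Its levels were 8.99, 9.06, 8.91 and 8.19 with thyroxine and 8.28, 8.78, 8.23 and 7.82 in control medium. Both groups were lowest in the wild-type male culture, and the groups overlapped there, although each pair differed in the same direction. The difference was 0.51 ± 0.08 (SE; limma 95% interval 0.32 to 0.70), or 1.42-fold.

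The promoter windows of Klf9, Htra1 and Il6, the last described further on, are shown. Klf9 is a known hormone target and Il6 a cytokine among the 12 lower genes. Htra1 had the smallest p among characterised genes with 1 sign in every pair. Each is the stretch of 250 bases before the start of the gene in RefSeq, build GRCm38.p6, on the plus strand. Capitals mark a match to a GC box (GGGCGG) in Htra1 and to an NF-kappaB site (GGGA and TTCC with any 2 bases between) in Il6, searched on both strands. Klf9 lies at chr19:23140976-23141225, Htra1 at chr7:130935953-130936202 and Il6 at chr5:30012864-30013113.
Klf9: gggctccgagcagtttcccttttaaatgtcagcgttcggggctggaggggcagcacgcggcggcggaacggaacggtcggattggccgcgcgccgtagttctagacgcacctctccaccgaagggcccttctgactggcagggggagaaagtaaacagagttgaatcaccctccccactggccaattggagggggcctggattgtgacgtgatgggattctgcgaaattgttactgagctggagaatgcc
Htra1: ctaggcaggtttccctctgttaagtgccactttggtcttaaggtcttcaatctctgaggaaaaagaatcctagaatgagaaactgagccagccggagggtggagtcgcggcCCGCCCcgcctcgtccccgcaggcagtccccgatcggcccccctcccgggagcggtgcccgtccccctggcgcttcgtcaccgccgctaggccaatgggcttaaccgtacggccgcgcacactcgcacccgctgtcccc
Il6: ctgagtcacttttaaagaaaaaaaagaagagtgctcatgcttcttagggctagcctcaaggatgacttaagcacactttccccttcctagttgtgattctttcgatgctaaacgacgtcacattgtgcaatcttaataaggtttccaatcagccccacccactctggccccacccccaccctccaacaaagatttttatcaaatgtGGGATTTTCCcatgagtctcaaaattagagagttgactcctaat
The Il6 match ended 34 bases before the start. None of the 3 windows held the thyroid hormone receptor half-site AGGTCA, which was present in 14% of the 32851 mouse windows of the same length. GGGCGG was present in 32.7% and the NF-kappaB letters in 1.21% of them. Windows were at hand for 8 of the 12 higher genes, of which 0 held AGGTCA and 4 held GGGCGG, and for 10 of the 12 lower genes, of which 3 held AGGTCA and 3 held GGGCGG. A match or its absence in these windows is a description of letters only.

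Stmn2, a stathmin that destabilises microtubules and is best known from neurons, had levels of 9.18, 8.09, 8.10 and 8.63 with thyroxine and 8.91, 7.01, 7.48 and 8.23 in control medium. The groups overlapped widely because the cultures differed in their base level, but the differences within pairs were 0.27, 1.08, 0.62 and 0.40. Fam180a was low, with 5.69, 5.16, 5.84 and 4.61 with thyroxine and 5.20, 4.11, 5.45 and 3.76 in control medium. It had the largest effect of all genes tested, 0.70 ± 0.14 (SE), again with overlapping groups and 1 sign in every pair.

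Sfrp4, a secreted inhibitor of WNT signalling, had levels of 4.69, 4.6, 4.98 and 3.81 with thyroxine and 4.16, 3.71, 4.10 and 3.53 in control medium. The wild-type male culture was lowest in both media, and the other 3 thyroxine arrays lay above every control array. Its difference was 0.65 ± 0.15 (SE). Npr3, the clearance receptor of natriuretic peptides, was expressed at 9.85, 8.92, 9.29 and 8.89 with thyroxine and at 9.46, 8.89, 8.97 and 8.42 in control medium. The Twist1+/- male pair differed by 0.03 only, and the other 3 pairs by 0.32 to 0.47.

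Pcolce2, an enhancer of procollagen processing, and Gsdmcl2, a gasdermin of the C family, were the 2 genes whose groups were apart. Pcolce2 measured 6.54, 6.39, 6.37 and 6.77 with thyroxine and 6.27, 6.15, 6.07 and 6.19 in control medium, so that the lowest thyroxine array stood above the highest control array. Gsdmcl2 measured 5.23, 5.41, 5.20 and 4.89 with thyroxine and 4.68, 4.75, 4.87 and 3.73 in control medium. Gsdmcl2 has close relatives in the genome, and Csprs belongs to a multicopy family with 3 probe sets here, so signal of related genes may be included in both. Pgm5, a relative of phosphoglucomutase found at cell junctions, differed by 0.63, Itgbl1, a secreted protein with integrin-like repeats, by 0.40, and Epdr1, a secreted relative of ependymins, by 0.31. Pgm5 averaged 4.29 with thyroxine and 3.66 in control medium, Csprs 4.20 and 3.62, and Sfrp4 4.52 and 3.875. These control means lay below the filter value of 3.905. The filter used the mean of all arrays, those with thyroxine included.

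**Figure D1:**
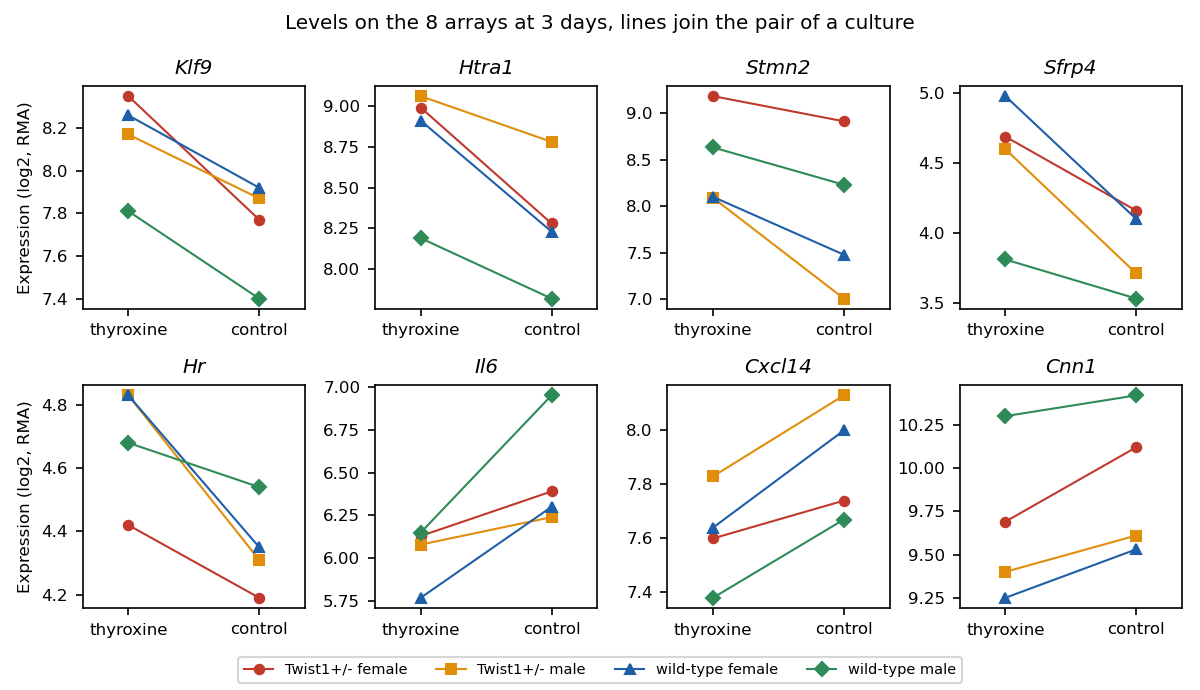
Log2 expression of 8 genes on the thyroxine arrays (left in each panel) and the control arrays (right), with a line joining the 2 arrays of a culture. Axes do not start at 0 and differ between panels; lines of Klf9, Htra1, Stmn2, Sfrp4 and Hr run down to the control in all 4 cultures and lines of Il6, Cxcl14 and Cnn1 run up.

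The genes that were lower with thyroxine had mostly smaller effects and included 2 secreted immune factors and a contractile protein. The 12 with the smallest p among those lower in 4 of 4 pairs were Siglecg, Ptprz1, Cxcl14, Il6, Amot, Cnn1, Cln8, Zc3h13, Lce1h, Snx27, Ap1ar and Lrig1, with p from 0.0022 to 0.0111. Their effects lay between -0.64 and -0.21. The thyroxine and control arrays did not overlap for 5 of the 12, against 46 genes (0.342%) over all genes tested, and these 12 were picked for the same values.

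Il6, the gene of the inflammatory cytokine interleukin-6, had levels of 6.13, 6.08, 5.77 and 6.15 with thyroxine and 6.39, 6.24, 6.30 and 6.95 in control medium. Every thyroxine array lay below every control array, and the control level was highest in the wild-type male culture, where the difference was also the largest. The mean was 6.03 ± 0.18 with thyroxine and 6.47 ± 0.33 in control medium (SD, n = 4 each), a difference of -0.44 ± 0.11 (SE; limma 95% interval -0.69 to -0.18). Within pairs it was -0.26 and -0.16 in Twist1+/- cells and -0.53 and -0.80 in wild-type cells.

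Cxcl14, a chemokine, had levels of 7.60, 7.83, 7.64 and 7.38 with thyroxine and 7.74, 8.13, 8.00 and 7.67 in control medium. The groups overlapped by the Twist1+/- male thyroxine array, and the pairs differed by -0.36 to -0.14. Cnn1, which encodes the smooth muscle calponin of contractile cells, had 9.69, 9.40, 9.25 and 10.3 with thyroxine and 10.12, 9.61, 9.53 and 10.42 in control medium. Here the culture set most of the level, with the wild-type male culture highest in both media, and the difference was -0.26 ± 0.07 (SE).

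Ptprz1, a receptor tyrosine phosphatase, was at 4.64, 4.68, 4.26 and 4.59 with thyroxine and 5.05, 5.25, 4.77 and 4.90 in control medium, with no overlap. Cln8, a protein of the endoplasmic reticulum, was at 4.95, 5.01, 5.14 and 5.06 with thyroxine and 5.42, 5.30, 5.46 and 5.54 in control medium, also with no overlap. Lrig1, which restrains signalling by the epidermal growth factor receptor, differed by -0.27 ± 0.09 (SE), Amot, a scaffold that binds YAP, by -0.26 ± 0.07 (SE) and Siglecg, a sialic acid receptor of immune cells, by -0.34 ± 0.08 (SE). Lce1h, a gene of the cornified envelope with near relatives in the genome, ran from 2.84 to 7.43 with thyroxine and from 3.80 to 7.58 in control medium. Its pair differences of -0.89, -0.12, -1.39 and -0.15 were the least even of the 12.

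**Figure D2:**
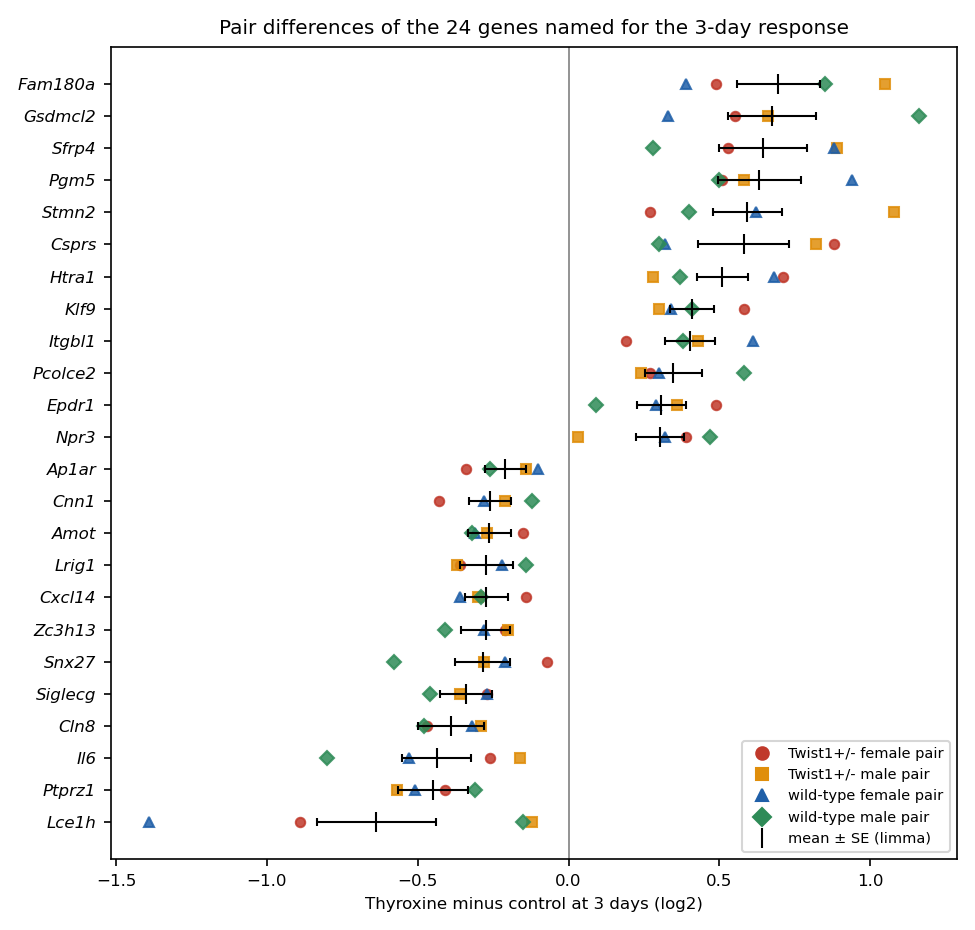
Thyroxine minus control at 3 days (log2) for the 12 genes named as higher and the 12 named as lower, 1 symbol per culture pair, with the mean and its limma SE in black. All 4 symbols of a gene lie on 1 side of 0 because the genes were picked for it, and the spread between pairs is widest for Lce1h.

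The genes of thyroid hormone action itself were described as a group. Of 26 listed target genes, 23 were on the array and 17 were tested, with 10 above 0, 6 below 0 and a median effect of 0.03, against 47.4% above 0, 51.5% below 0 and a median of -0.005 over all genes tested. At an unadjusted p under 0.05, 4 of the 17 were higher and 0 were lower, against 1.32% and 1.41% of all genes. These were Klf9, Hr, Dio3 and Pdk4, and all 4 were higher in every pair. The count was 2 without the Twist1+/- female pair and 2 without the wild-type female pair.

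Hr, which encodes the corepressor hairless and is a direct target in the brain and skin of rodents, had 4.42, 4.83, 4.83 and 4.68 with thyroxine and 4.19, 4.31, 4.35 and 4.54 in control medium. Only the Twist1+/- female thyroxine array lay within the range of the control arrays. The difference was 0.34 ± 0.13 (SE).

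Dio3, the deiodinase that inactivates thyroid hormone, had 4.71, 4.84, 4.71 and 3.50 with thyroxine and 4.38, 4.53, 3.95 and 3.42 in control medium. Its pairs differed by 0.08 to 0.76, and the level in the wild-type male culture was below the filter value in both media. Pdk4, a kinase that holds back pyruvate oxidation, had 7.91, 7.33, 7.14 and 8.14 with thyroxine and 7.48, 7.22, 7.13 and 7.84 in control medium. The wild-type female pair differed by 0.01, so that Pdk4 rested on the other 3 cultures.

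The receptors, deiodinases, transporters and cofactors of the hormone showed no common direction, with 17 of 20 genes on the array tested and a median of 0.01. At an unadjusted p under 0.05, 1 was higher, Dio3, and 0 were lower, against 1.32% and 1.41% of all genes. Thra had 6.00, 6.27, 6.01 and 5.50 with thyroxine and 5.72, 5.95, 6.18 and 5.17 in control medium. It was higher by 0.28 to 0.33 in 3 pairs and lower by 0.17 in the wild-type female pair, which averaged to 0.19 ± 0.11 (SE). Thrb averaged 5.0 ± 0.44 with thyroxine and 4.81 ± 0.22 in control medium, and Dio2, the activating deiodinase, 4.63 ± 0.19 with thyroxine and 4.70 ± 0.34 in control medium (SD, n = 4 each). Their pairs ran in both directions, and the mean of Dio2 was 0.07 without the Twist1+/- female pair.

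Twist1 differed by 0.04 ± 0.14 (SE), with pairs in both directions and a mean of -0.14 without the Twist1+/- male pair, and measured 6.97, 7.53, 7.46 and 6.54 with thyroxine and 7.34, 6.94, 7.70 and 6.35 in control medium. Its levels in the Twist1+/- and wild-type cultures overlapped, and since the deleted or altered part of the gene is not given here, the level does not check the genotype labels. The exact two-sided sign-flip test over 4 pairs has 16 sign patterns, of which at least 2 are as extreme as the data, so it cannot pass 0.05. Klf9, Hr, Dio3 and Il6, 4 of the 8 genes examined this way, reached that smallest p. A gene reaches it when it is higher in every pair or lower in every pair. Over all genes tested 4.33% were higher and 4.7% lower in 4 of 4 pairs. The 8 were chosen genes, so these shares are not an even yardstick, and the count supports nothing further.

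Of 26 proteoglycan and elastic matrix genes tested, 21 lay below 0 and 5 above, against 51.5% and 47.4% of all genes, with a median of -0.09 against -0.005 for all genes, and 6 were lower in 4 of 4 pairs against 4.7% of all genes. At an unadjusted p under 0.05, 2 were lower, Lum and Dcn, small proteoglycans that bind collagen fibrils, and 1 was higher, Mfap4, a protein of elastic microfibrils. Over all genes 1.41% were lower and 1.32% higher at that level. The count of lower genes was 6 without the Twist1+/- male pair and 1 without the Twist1+/- female or the wild-type male pair. Over all genes, the number at that level in both directions together also rose without the Twist1+/- male pair, from 367 to 1281. The list's mean difference was -0.06, -0.09, -0.07 and -0.10 in the 4 pairs.

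Lum had 6.30, 6.47, 7.15 and 4.58 with thyroxine and 6.60, 6.69, 7.25 and 4.97 in control medium. Dcn had 8.70, 8.90, 9.14 and 7.04 with thyroxine and 8.80, 9.10, 9.20 and 7.50 in control medium. For both, the culture determined the level far more than the medium, with the wild-type male arrays lowest, and the differences within pairs were all below 0. Eln, the gene of elastin, differed by -0.26 ± 0.12 (SE) and Mfap4 by 0.27 ± 0.11 (SE), with 6.17, 6.18, 6.70 and 5.69 with thyroxine against 6.08, 5.64, 6.60 and 5.34 in control medium for Mfap4.

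Of 20 collagen genes, 16 lay below 0 with a median of -0.08, and 0 passed an unadjusted p of 0.05. This rested on 1 culture. The mean difference of the list was 0.04, -0.26, -0.06 and 0.00 in the 4 pairs, and without the Twist1+/- male pair 11 of 20 lay below 0 and the median was -0.005, an alternative added after the data were seen. In the same pair the macrophage and osteoclast markers had values above 0, with a list mean of 0.28 against -0.13, -0.12 and -0.03 in the other pairs, and 18 of 21 genes above 0. Without that pair 4 of the 21 were lower at an unadjusted p under 0.05. The number of all genes at that level, in both directions together, also rose without it, from 367 to 1281. The part of these markers in the collagen values was not tested.

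Contractile genes gave 13 of 18 below 0 and a median of -0.08, with 3 lower and 0 higher at an unadjusted p under 0.05, against 51.5% below 0, 1.41% lower and 1.32% higher over all genes. The 3 became 1 without the wild-type female pair, 1 without the wild-type male pair and 2 with the arrays centred on their medians. Besides Cnn1 these were Ccn2, a matricellular growth factor, and Ankrd1, a nuclear protein of stretched muscle, both known targets of YAP. Ccn2 had 10.40, 9.92, 9.68 and 11 with thyroxine and 10.37, 10.25, 10.02 and 11.16 in control medium, with the Twist1+/- female pair level and the others lower. Ankrd1 had 9.27, 8.28, 8.36 and 10.32 with thyroxine and 9.31, 8.67, 8.51 and 10.44 in control medium, lower in each pair. The list mean was -0.10, -0.09, -0.12 and 0.01 in the 4 pairs, so it was not lower in the wild-type male culture.

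Cytokines and chemokines were divided by culture. Of 26 genes tested, 17 lay below 0 with a median of -0.06, and 4 were lower at an unadjusted p under 0.05, namely Cxcl14, Il6, Ccl7 and Ccl11, against 51.5% below 0 and 1.41% lower over all genes. Nos2, the inducible nitric oxide synthase, was the 1 gene that was higher at that level, against 1.32% of all genes. The list mean was -0.07, 0.18, -0.18 and -0.17 in the 4 pairs. Without the Twist1+/- male pair 20 of 26 lay below 0, the median was -0.13 and 8 were lower at that level. Leaving out this pair also raised the number of all genes at that level, in both directions together, from 367 to 1281. The list count covers lower genes only, and whether it rose more than that of other genes was not tested. With the male wild-type pair left out, the median was 0.00 and 12 lay below 0. With the wild-type female pair left out, it was -0.01, 14 lay below 0 and 2 were lower at that level.

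Ccl7, a chemokine that draws monocytes, had 8.71, 9.09, 8.72 and 8.01 with thyroxine and 8.64, 9.44, 9.18 and 8.38 in control medium, so that it was lower in 3 pairs and higher by 0.07 in the Twist1+/- female pair. Ccl11, which draws eosinophils, had 4.21, 4.30, 5.09 and 3.69 with thyroxine and 4.44, 4.5, 5.95 and 3.87 in control medium, lower in each pair and most of all in the wild-type female pair. The macrophage list was highest in the Twist1+/- male pair as well. The other pairs were ordered differently, with means of -0.13, -0.12 and -0.03 for macrophages and -0.07, -0.18 and -0.17 for cytokines. The part of macrophage markers in the cytokine values was not tested.

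Interferon-induced genes had pair differences of opposite sign in the genotypes, with list means of 0.13 and 0.15 in Twist1+/- pairs and -0.13 and -0.10 in wild-type pairs, a median of 0.02 and 0 of 22 genes at an unadjusted p under 0.05. The difference between the genotypes was not tested for the list.

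Growth factor pathways gave single genes without a common direction. Among 27 WNT pathway genes the median was 0.02, Sfrp4 was higher and Nkd1, a feedback inhibitor, was lower at an unadjusted p under 0.05. Nkd1 had 4.43, 4.85, 4.29 and 4.0 with thyroxine and 4.81, 4.87, 5.14 and 4.38 in control medium, with the Twist1+/- male pair nearly level and the other pairs 0.38 to 0.85 lower. Among 17 insulin-like growth factor genes, Htra1 and Igfbp4 were higher and Igfbp2 and Igfbp5 lower at that level, with a median of -0.04. For both lists the shares over all genes tested were 1.32% higher and 1.41% lower. The Igfbp proteins hold insulin-like growth factors outside the cell.

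Igfbp4 had 10.37, 10.20, 10.40 and 9.68 with thyroxine and 10.09, 9.80, 10.18 and 9.69 in control medium. The wild-type male pair differed by -0.01, and the other 3 thyroxine arrays lay above every control array. Igfbp5 had 9.33, 9.31, 9.19 and 6.12 with thyroxine and 9.32, 9.67, 9.21 and 6.77 in control medium, so that the 2 male pairs carried its difference of -0.26 ± 0.10 (SE).

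Of 25 TGF-beta and BMP genes 1 was lower at an unadjusted p under 0.05, against 1.41% of all genes. It was the ligand Bmp6, with 5.53, 5.25, 5.71 and 4.73 with thyroxine and 5.72, 5.57, 5.68 and 5.59 in control medium. The wild-type male pair, 0.86 lower, gave most of it. Among 16 FGF receptors and feedback genes 11 lay below 0 with a median of -0.04 and 0 passed an unadjusted p of 0.05. In 4 of 4 pairs 2 were lower and 1 was higher, against 4.7% and 4.33% of all genes, and the 2 were the ligand Fgf2, at -0.18 ± 0.08, and the decoy receptor Fgfrl1, at -0.14 ± 0.08 (SE). Among 23 matrix proteases and inhibitors Htra1 was the 1 higher and Adamts12, a protease of the ADAMTS family, the 1 lower gene at an unadjusted p under 0.05. Over all genes 1.32% were higher and 1.41% lower at that level. Adamts12 had 7.29, 7.20, 7.25 and 7.06 with thyroxine and 7.42, 7.84, 7.29 and 7.48 in control medium. It was lower in each pair, by more in the male pairs than in the female pairs.

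The lists closest to the suture phenotype showed little. Of 14 osteoblast genes tested 0 passed an unadjusted p of 0.05, with effects from -0.16 to 0.22 and a median of -0.02. Alpl, the alkaline phosphatase of mineralising cells, averaged 5.37 with thyroxine and 5.53 in control medium, a difference of -0.16 ± 0.11 (SE). Pth1r, the receptor of parathyroid hormone, differed by 0.21 ± 0.11 (SE). Of 20 suture patterning transcription factors only Id2, an inhibitor of basic helix-loop-helix factors, was higher at an unadjusted p under 0.05, against 1.32% of all genes, and none was lower. Id2 had 8.14, 8.28, 8.36 and 9.11 with thyroxine and 8.01, 8.09, 8.13 and 9.05 in control medium. Msx2, a homeobox factor of the skull, differed by 0.14 ± 0.09 (SE).

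Growth, metabolism and stress lists were close to level. Cell cycle (30 genes), cholesterol and fatty acid synthesis (22), amino acid and unfolded protein stress (24) and respiratory chain (25) genes had medians of -0.01, -0.01, -0.01 and -0.005 and 0 genes at an unadjusted p under 0.05. Of 17 clock genes 9 lay above and 8 below 0. At an unadjusted p under 0.05, 1 was higher and 0 were lower, against 1.32% and 1.41% of all genes. Cry1, a repressor of the clock and the 1 higher gene, was at 4.98, 5.30, 5.20 and 5.28 with thyroxine and 4.85, 4.90, 4.99 and 4.85 in control medium, higher in each pair. Hlf, an output factor of the clock, was at 4.61, 4.62, 4.6 and 4.62 with thyroxine and 4.74, 4.94, 4.85 and 4.91 in control medium. Its groups did not overlap, as for 46 genes (0.342%) over all genes tested, and its p was 0.0565 by limma before adjustment.

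Glucocorticoid target genes, which share Klf9 and Pdk4 with the thyroid list, also held Fkbp5, a chaperone of the glucocorticoid receptor, at 5.36, 5.64, 5.30 and 5.47 with thyroxine and 5.74, 5.83, 5.51 and 5.68 in control medium. It was lower in each pair while Klf9 and Pdk4 were higher. Of the 14 genes of this list tested, 7 lay above and 7 below 0, with 2 higher and 1 lower at an unadjusted p under 0.05. Among 20 immediate early genes 7 lay above and 13 below 0, with a median of -0.02. Egr3, a zinc-finger factor, was the 1 at that level, higher in each pair by 0.01 to 0.61. Among 15 hypoxia and glycolysis genes 4 lay above and 11 below 0, and Ndrg1 was the 1 at that level, lower in each pair by 0.16 to 0.26. Over all genes 1.32% were higher and 1.41% lower at that level.

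**Figure D3:**
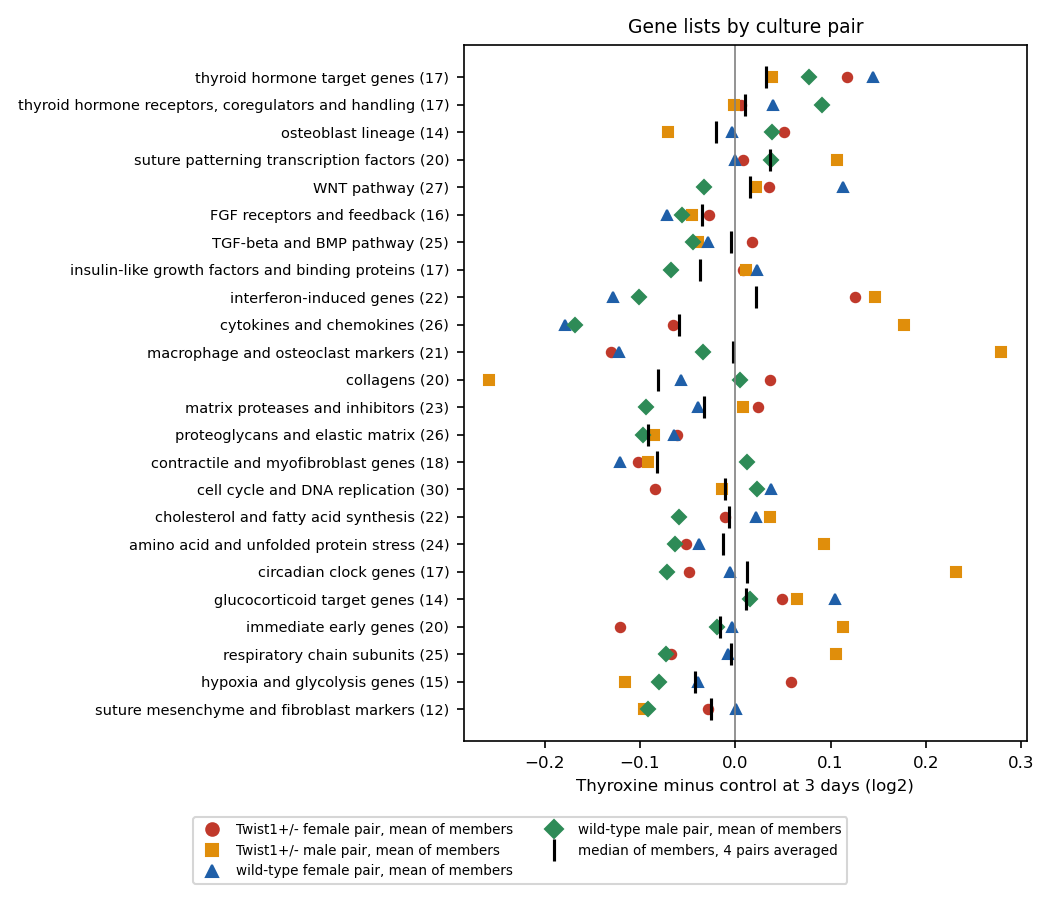
Mean thyroxine minus control difference at 3 days (log2) of 24 gene lists with 10 or more genes tested, 1 symbol per culture pair, with the median of the members' effects as a black bar and the number of genes tested in brackets. The Twist1+/- male pair lies at 0.28 for macrophage markers and at -0.26 for collagens, away from the other 3 pairs.

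The differences of the 4 cultures were weakly related across genes. Over the 13453 genes, the differences of the Twist1+/- male pair correlated at -0.270 with those of the Twist1+/- female pair, at -0.148 with the wild-type female pair and at -0.233 with the wild-type male pair. The other 3 pairs correlated at 0.113 to 0.138 with each other. These are correlations across genes of 4 pairs, and genes are not independent replicates. The SD of the differences over genes was 0.222, 0.269, 0.229 and 0.272 in the 4 pairs. Without the Twist1+/- male pair limma still called 0 genes, with 1281 at an unadjusted p under 0.05 and the smallest adjusted p at 0.0983 for Htra1, followed by 0.154 for Klf9.

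The difference between the genotypes in the 3-day effect was tested over all 16 arrays and 0 of 13453 genes (0%) passed, with a smallest adjusted p of 0.885 by limma and 584 genes (4.34%) at an unadjusted p under 0.05. Oaz1, an inhibitor of polyamine synthesis, had the smallest p, with pair differences of 0.31 and 0.61 in Twist1+/- cells and -0.48 and -0.70 in wild-type cells. Car6 and Kctd13 showed the same pattern. Dync1h1, the heavy chain of cytoplasmic dynein, had -0.20 and -0.82 in Twist1+/- cells and 0.19 and 0.37 in wild-type cells, and Upk2 and Shc3 went the same way. The effect of Klf9 was 0.44 in Twist1+/- cells and 0.38 in wild-type cells. Without the Twist1+/- female pair 75 genes passed the genotype test and without the Twist1+/- male pair 1 did, with 0 when either wild-type pair was left out.

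The 3-day values were set beside those at 7 days, measured on other arrays of cells of the same genotypes and sexes. The labels do not say how the cells of the 2 days relate. At 7 days limma called 21 genes (0.156%), with 396 genes (2.94%) higher and 804 (5.98%) lower at an unadjusted p under 0.05. Without both Twist1+/- pairs at 7 days it called 0 genes, with 619 at an unadjusted p under 0.05. Over all genes 50.2% had the same direction at both days, and the effects correlated at 0.0348 across genes. Of the 12 genes higher at 3 days, 10 had the same direction. At an unadjusted p under 0.05, 9 were higher, against 2.94% of all genes. Htra1, Klf9, Npr3 and Epdr1 had an adjusted p under 0.05. These 7-day p-values also use the spread of the 3-day arrays, and the 12 were picked for small p there. The share over all genes is therefore not an even yardstick for them. The median 7-day effect of the 12 was 0.51, and 0.53 in wild-type cells alone.

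Klf9 differed by 0.41 at 3 days and 0.70 ± 0.08 (SE) at 7 days, and Htra1 by 0.51 at 3 days and 0.63 ± 0.09 (SE) at 7 days. Pgm5 differed by 0.63 at 3 days and 0.94 at 7 days, and Sfrp4 by 0.65 at 3 days and 0.69 at 7 days. Csprs at -0.21 and Gsdmcl2 at -0.07 were the 2 of the 12 that were not higher at 7 days. None of these differences between days passed the test, with limma adjusted p of 0.896 for Klf9 and 0.939 for Htra1. The 10 genes that earlier results named as higher over both days were all higher here, at 0.22 to 0.70, Heg1, a receptor of vessel and heart development, at 0.31 and Mxra7 at 0.26 among them, but those results used these arrays and are no independent support.

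Of the 12 genes lower at 3 days, 5 had the same direction at 7 days, against 50.2% of all genes, 3 were lower at an unadjusted p under 0.05 against 5.98% of all genes, and the median 7-day effect was 0.05. The 3 were Il6, Cnn1 and Snx27, a sorting protein of endosomes, and their 7-day p-values also use the spread of the 3-day arrays. Il6 was lower at 7 days in all 4 pairs, with a difference of -0.70 ± 0.10 (SE), with an adjusted p of 0.0112 by limma. Lce1h went the other way, at 0.83 in 7-day cells, with an adjusted p of 0.262 for the difference between days.

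**Figure D4:**
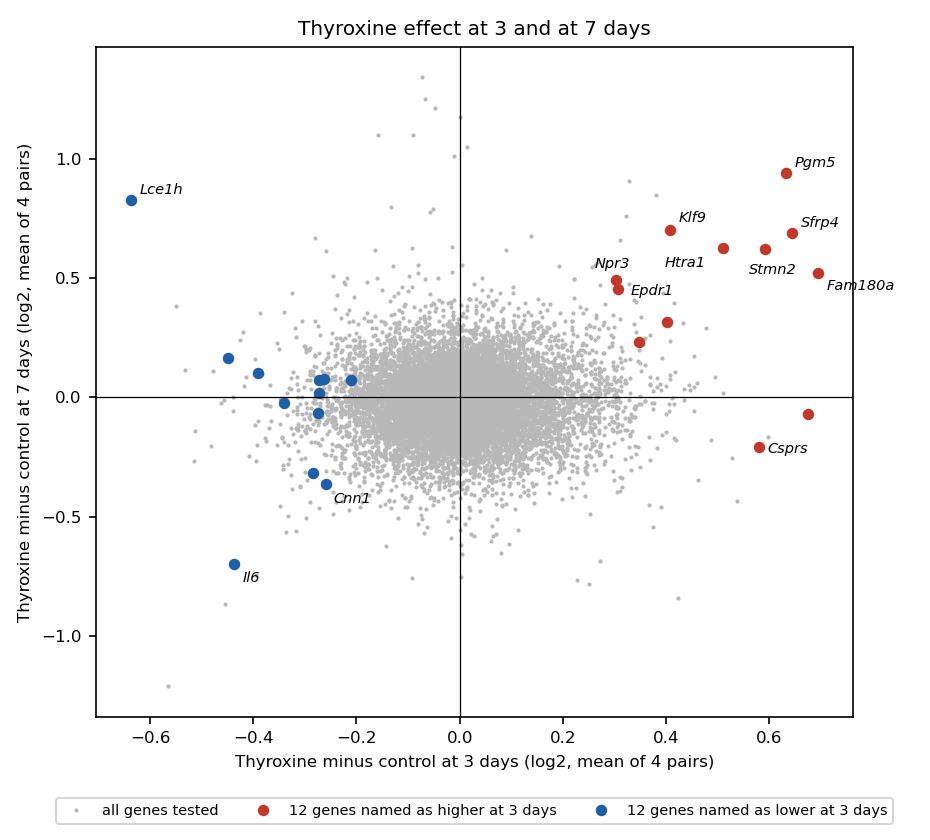
Thyroxine minus control (log2, mean of 4 pairs) at 3 days on the horizontal axis and at 7 days on the vertical axis, for all 13453 genes tested (grey), the 12 genes named as higher (red) and the 12 named as lower (blue) at 3 days. Red points lie in the upper right apart from Csprs and Gsdmcl2, and blue points lie on both sides of the horizontal line, with Il6 lowest and Lce1h highest.

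The test of the difference between days, 3 days minus 7 days over all 16 arrays, called 1 of 13453 genes (0.00743%), with 724 genes (5.38%) at an unadjusted p under 0.05. The gene was Rps18, which encodes a protein of the small ribosomal subunit and has processed copies elsewhere in the genome, at -1.26 ± 0.17 (SE, adjusted p = 0.0491 by limma). Rps18 has 3 probe sets here, and only the brightest was used for the difference between days. Its 3-day differences were -0.37, -0.66, 0.35 and 0.05 and its 7-day differences 2.82, 2.48, -0.02 and -0.87. The control arrays measured 8.26 to 9.02 at 3 days, and the Twist1+/- control arrays at 7 days were low, at 6.05 and 6.27. Without both Twist1+/- pairs at 7 days 0 genes passed.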

How the data were processed

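The authors deposited 1 log2 value per probe set and array, for which the submitters' processing notes name RMA and Affymetrix Expression Console. No version, build or annotation release is named in the sources used here. RMA equalises arrays, and array medians ran from 3.73 to 3.86. Of 41345 probe sets, 23521 had 1 gene symbol, 1814 several and 16010 none, and the brightest probe set of each of 22180 genes was kept. The 13453 genes at or above 3.905 (40th percentile) in their mean were tested, and 8727 were left out.

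Limma 3.58.1 in R 4.3.3 (lmFit, eBayes with intensity trend, two-sided, Benjamini-Hochberg at 0.05) was fitted to the 8 arrays at 3 days with culture as a block, with 3 residual and 7.57 prior degrees of freedom. Genotype and day differences used all 16 arrays. Confidence intervals are at 95%. The fits were tested on simulated data. Pairing follows the labels, by which each plate held 3 wells of each medium, and deviations of the arrays of a culture correlated at 0.446, 0.0843, 0.553 and 0.767. P-values and standard errors combine a gene's own spread of pair differences with a prior spread fitted over all genes tested. The spread between pairs may be technical in part.

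The arrays, the 32 gene lists and the alternatives were chosen with earlier results of these data known. Named were 12 genes per direction with the smallest p and 1 sign in 4 pairs, since none passed, leaving out uncharacterised gene models, with up to 4 genes per list, 8 chosen genes and the 3 smallest p per direction for the genotype difference. The 3 promoter windows, from RefSeq, were chosen after values were seen. The 10 genes of earlier results include Heg1 and Mxra7. Listed genes without a probe set here are not analysed here.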

Additional observations from a re-analysis of the deposited data

Results flagged for a closer look

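Thra in the wild-type female pair differed by -0.17 (thyroxine minus control, log2), while the other 3 pairs were 0.28 to 0.33 higher, which left it far from them for a group of 4. This was 1 of 30 genes examined in this way, and chance alone marks about 1 in 20.

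The effect of thyroxine on Rps18 differed between days by -1.26 (3 days minus 7 days, log2), with a limma adjusted p of 0.0491. Its value rests on the Twist1+/- pairs at 7 days, at 2.82 and 2.48, against -0.02 and -0.87 in wild-type pairs at 7 days.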

How the results depend on the processing

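For the 3-day effect over both genotypes, 0 genes passed under every alternative run. Genes at an unadjusted p under 0.05 numbered 168 with no replicate block to 774 with array weights, and 232 to 1281 when 1 culture pair was left out. The 24 genes named for the 3-day effect, 17 of which were tested under the stricter filter, kept their direction under these alternatives. Over 104 named genes 7 turned, none of them with an unadjusted p under 0.05: Twist1 (0.04) was -0.14 without the Twist1+/- male pair, -0.01 without the wild-type male pair, -0.03 in wild-type pairs alone and -0.07 with array weights, Dio2 (-0.07) was 0.07 and 0.02 without the Twist1+/- female and male pair and 0.28 in wild-type pairs alone, and Twist2, Ifit2, Mmp9, Cdkn1c and Fasn turned within 1 genotype alone. Leaving out 1 pair brought some counts of 1 or 2 genes in a list at an unadjusted p under 0.05 to 0, namely those that held Dio3, Id2, Nkd1, Bmp6, Nos2, Adamts12, Mfap4, Cry1, Fkbp5, Egr3, Ndrg1, Acta1 or Tubb3, Igfbp2 with Igfbp5, and Dcn with Lum among the mesenchyme markers. The paired fit was used throughout, and without the replicate block 0 genes passed in either the genotype or the day difference. For the genotype difference, leaving out 1 pair gave 0 to 75 genes, with 75 without the Twist1+/- female pair and 1 without the Twist1+/- male pair. For the day difference, 0 genes passed without the intensity trend, with no filter, and without both Twist1+/- pairs at 7 days. Leaving out 1 pair gave 0 to 17 genes, with 14 and 17 without the Twist1+/- female and male pair at 3 days, 5 without the Twist1+/- male pair at 7 days, 7 without the wild-type male pair at 7 days, and 0 without each of the other 4. A genotype left with 1 pair was taken to vary like the others. The causes were not tested. The median standard error over genes at 3 days was 0.107.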
